A study of Homo sapiens with 6 samples.

Results

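Ceramidases are the enzymes that cleave ceramide into a free sphingoid base and a fatty acid. All 5 human ceramidase genes listed by symbol, ASAH1, ASAH2, ACER1, ACER2 and ACER3, were found among the 35238 symbols of the count table, and 4 of them had enough reads to be tested, ACER1 being the exception. The cells were HAP1, an established human line that descends from a leukaemia line and carries most chromosomes in a single copy, and their total RNA was sequenced. There were 3 libraries of untreated HAP1 cells with a DEGS1 knockout and 3 of untreated wildtype HAP1 cells, all grown in the same serum-containing medium and collected at the same interval after passage. The sources used here do not say how many knockout clones were used or whether the libraries came from separate cultures, so an effect of a clone cannot be told apart from one of the genotype, and p-values measure only how far these libraries differ from each other, which may be technical. Log2 fold changes (log2FC) are knockout over wildtype and carry a standard error (SE).

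DEGS1 encodes the desaturase that puts the double bond into dihydroceramide and so completes ceramide synthesis. The ceramidases are grouped by the pH at which they work. The acid enzyme ASAH1 acts in lysosomes, the neutral enzyme ASAH2 acts mainly at the cell surface, and the alkaline enzymes ACER1, ACER2 and ACER3 are membrane proteins of the endoplasmic reticulum and Golgi. ACER2 and ACER3 are able to cleave dihydroceramide as well as ceramide, which gives dihydrosphingosine in place of sphingosine. Either base can be acylated again by a ceramide synthase or phosphorylated by a sphingosine kinase, so ceramidases stand between the ceramide pool and sphingosine 1-phosphate.

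The knockout libraries held 19389644 to 27659835 counts and the wildtype libraries 17322756 to 28988522. DEGS1 averaged 8.93 CPM (counts brought to a common depth) in the knockout and 108 CPM in wildtype (log2FC -3.59, SE 0.17, edgeR adjusted p = 3.07e-07). At a Benjamini-Hochberg adjusted p under 0.05 in edgeR's quasi-likelihood test, 4.46% of the 16954 genes tested changed, 1.51% rising and 2.95% falling. Wildtype replicate 2 stood apart in its effect on the test, since 22.1% of genes passed without it. Of 6 blood cell markers 4 were under 1 CPM in every library, SPI1 being at 0 counts, and their summed level was 4.08 to 5.18 CPM in the knockout and 2.93 to 6.21 CPM in wildtype. The 4 epithelial markers summed to 68.8 to 102 CPM in the knockout and 67.7 to 73.9 CPM in wildtype. Of these only EPCAM passed the test, falling to 0.275 CPM in the knockout from 2.16 CPM in wildtype. KRT18 averaged 70.8 CPM in the knockout and 51.1 CPM in wildtype and did not pass (log2FC 0.47, edgeR adjusted p = 0.0794). The log2FC was positive for 2 of the 4 epithelial markers and negative for 2. The 4 fibroblast markers summed to 8.67 to 10.9 CPM in the knockout and 5.76 to 10.9 CPM in wildtype, with LUM at 0. Whether the cells that express such markers bear on any ceramidase value was not tested. In bulk RNA, fewer cells that express a gene and less RNA per cell cannot be told apart.

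ASAH1 and ACER3 carried most of the ceramidase reads, and no tested ceramidase passed edgeR's test between the genotypes. Levels can be compared between genes only per length, and were set on the longest GENCODE release 29 transcript of each gene. On that scale ASAH1 averaged 14.9 ± 0.883 CPM per kilobase in the knockout and 12.0 ± 1.15 in wildtype (SD, n = 3 each). ACER3 followed with 8.95 ± 0.626 CPM per kilobase in the knockout and 9.14 ± 0.864 in wildtype. ASAH2 was far lower, at 1.33 ± 0.0835 CPM per kilobase in the knockout and 1.13 ± 0.139 in wildtype. ACER2 stood at 0.455 ± 0.173 CPM per kilobase in the knockout and 0.464 ± 0.0808 in wildtype, and ACER1 at 0.164 ± 0.117 in the knockout and 0.127 ± 0.0802 in wildtype. Within either genotype the ranges of neighbours in this order did not overlap over the 3 libraries. The order of the highest pair depended on the transcript taken: with the median length of coding transcripts, ACER3 was above ASAH1, at 60.1 against 50.6 CPM per kilobase in the knockout and 61.3 against 40.8 in wildtype. ACER3 has 14 annotated transcripts and ASAH1 has 69, and the counts do not separate them.

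The stretch around the start of each gene differs widely among the ceramidases in the CG dinucleotides that mark CpG islands. RefSeq windows of GRCh38.p14, running from 250 bases before to 50 bases after the start, were matched by symbol for ASAH2, ACER1, ACER2 and ACER3, and not for ASAH1. The windows of ACER3, the most expressed alkaline enzyme, ASAH2 and ACER1, the least expressed ceramidase, are shown 5′ to 3′ on the gene's own strand, with each CG in capitals. They lie at chr11:76860668-76860967 (plus strand), chr10:50251467-50251766 (minus strand) and chr19:6333563-6333862 (minus strand).
ACER3: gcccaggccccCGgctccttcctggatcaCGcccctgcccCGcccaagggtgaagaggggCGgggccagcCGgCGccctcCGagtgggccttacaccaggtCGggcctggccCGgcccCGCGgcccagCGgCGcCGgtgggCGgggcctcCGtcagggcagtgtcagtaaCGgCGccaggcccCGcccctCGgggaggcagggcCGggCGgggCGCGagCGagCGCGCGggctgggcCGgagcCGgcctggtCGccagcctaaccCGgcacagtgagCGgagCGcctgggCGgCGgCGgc
ASAH2: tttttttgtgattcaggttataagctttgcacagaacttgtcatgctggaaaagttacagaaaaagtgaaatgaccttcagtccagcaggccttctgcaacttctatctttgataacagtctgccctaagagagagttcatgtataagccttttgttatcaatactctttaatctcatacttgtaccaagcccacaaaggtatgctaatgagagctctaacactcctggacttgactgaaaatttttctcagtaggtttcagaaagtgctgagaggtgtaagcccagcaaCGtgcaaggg
ACER1: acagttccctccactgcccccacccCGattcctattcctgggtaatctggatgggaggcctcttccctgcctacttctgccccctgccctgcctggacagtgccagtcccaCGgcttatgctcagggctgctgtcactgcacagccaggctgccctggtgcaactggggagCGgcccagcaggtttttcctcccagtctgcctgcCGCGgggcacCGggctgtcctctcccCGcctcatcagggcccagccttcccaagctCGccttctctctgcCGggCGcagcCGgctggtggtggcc

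The ACER3 window holds 37 CG dinucleotides, and 11.3% of 35116 promoter windows in the table hold at least as many. ACER2, whose window holds 31, is in the top 20.7%. The ACER1 window holds 11 and the ASAH2 window 1, against a median of 14 over all windows. Levels did not follow this count in every pair of these genes, since ASAH2 with 1 CG was expressed above ACER2 with 31. Whether transcription in these cells starts in these windows was not tested. The motif CACGTG, the core of the element bound by TFEB and related factors, reads the same on both strands and occurs in none of the windows of ASAH2, ACER1, ACER2 and ACER3, while 7.26% of all windows hold it.

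The acid ceramidase ASAH1 (chromosome 8) had 79.9, 89.6 and 87.3 CPM in the 3 knockout libraries, against 65.7, 76.5 and 64.6 CPM in the 3 wildtype libraries. Every knockout library was above every wildtype library, as was so in one direction or the other for 20.8% of all tested genes. The log2FC was 0.31 (SE 0.11, 95% interval 0.07 to 0.55), or 1.24-fold (interval 1.05 to 1.47). The unadjusted p in edgeR's test was 0.0154, and 16.5% of all tested genes had one under 0.05. The edgeR adjusted p was 0.166, so ASAH1 did not pass. Without wildtype replicate 2, the wildtype library with the highest ASAH1 level, it did pass (log2FC 0.40, edgeR adjusted p = 0.00855), in a fit where 22.1% of all genes passed. It also passed once the dependence of counts on transcript length and GC content was taken out of each library (log2FC 0.32, edgeR adjusted p = 0.0253), where 6.4% of genes passed. Of the 5 ceramidases only ASAH1 passed in any setting.

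The neutral ceramidase ASAH2 (chromosome 10) had 9.08, 9.71 and 8.57 CPM in the knockout libraries, against 8.26, 8.43 and 6.70 CPM in the wildtype libraries. The groups did not overlap, as was so for 20.8% of all tested genes, and the lowest knockout library and the highest wildtype library were close. The log2FC was 0.22 (SE 0.17, edgeR adjusted p = 0.559), with an interval from 0.901-fold to 1.51-fold. ASAH2 has a shortened copy, ASAH2B, on the same chromosome. Of the windows of 75 bases, the read length, in the longest ASAH2 transcript, 5.99% occur letter for letter in an ASAH2B transcript, so part of the reads of either gene could have been split by the counting. ASAH2B had 12.1, 15.5 and 13.6 CPM in the knockout libraries, against 11.6, 13.1 and 9.64 CPM in the wildtype libraries, and these groups overlapped (log2FC 0.26, SE 0.16, edgeR adjusted p = 0.472). With the counts of both genes summed, which was tried after the data had been seen, the log2FC was 0.25 (edgeR adjusted p = 0.416). A1CF overlaps ASAH2B on the other strand. The libraries were stranded, but whether the counting used the strand is not stated, so A1CF reads could have entered the ASAH2B counts.

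ACER3 (chromosome 11), the alkaline ceramidase of the endoplasmic reticulum and Golgi that prefers unsaturated acyl chains, had 62.9, 71.3 and 63.9 CPM in the knockout libraries, against 65.3, 74.6 and 62.3 CPM in the wildtype libraries. The groups overlapped over most of their range. The log2FC was -0.03 (SE 0.11, edgeR adjusted p = 0.916), and the 95% interval ran from 0.829-fold to 1.16-fold. Its sign was positive without knockout replicate 1, without wildtype replicate 2 and with the length and GC trend removed. No window of 75 bases in the longest transcript of ACER1, ACER2, ACER3 or ASAH1 occurs in a transcript of another gene. The annotation lists antisense genes over ACER3 and ASAH1, neither of which is a symbol of the count table.

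ACER2 (chromosome 9), the Golgi enzyme, was close to 1 CPM. It had 17, 19 and 40 counts in the knockout libraries, against 31, 28 and 16 counts in the wildtype libraries, or 0.872, 0.726 and 1.46 CPM in the knockout and 1.22, 1.04 and 0.857 CPM in wildtype. Knockout replicate 3 was the highest of all 6 libraries and knockout replicate 2 the lowest. The log2FC was -0.03 (SE 0.37, edgeR adjusted p = 0.980), with an interval from 0.561-fold to 1.72-fold. Counting error alone gave the summed counts a narrower interval, 0.706 to 1.37. Without knockout replicate 3 the log2FC was -0.38 and without knockout replicate 2 it was 0.18, neither of which passed.

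ACER1 (chromosome 19), an enzyme of the endoplasmic reticulum known mainly from skin, was at the edge of detection. It had 8, 6 and 2 counts in the knockout libraries, against 7, 6 and 1 counts in the wildtype libraries, where 3 counts were taken as the floor. Summed, these are 16 counts in the knockout and 14 in wildtype, a scaled ratio of 1.11 with an exact 95% interval of 0.508 to 2.46 that covers counting error only. Replicate 3 had the fewest ACER1 counts in both genotypes.

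**Figure D1:**
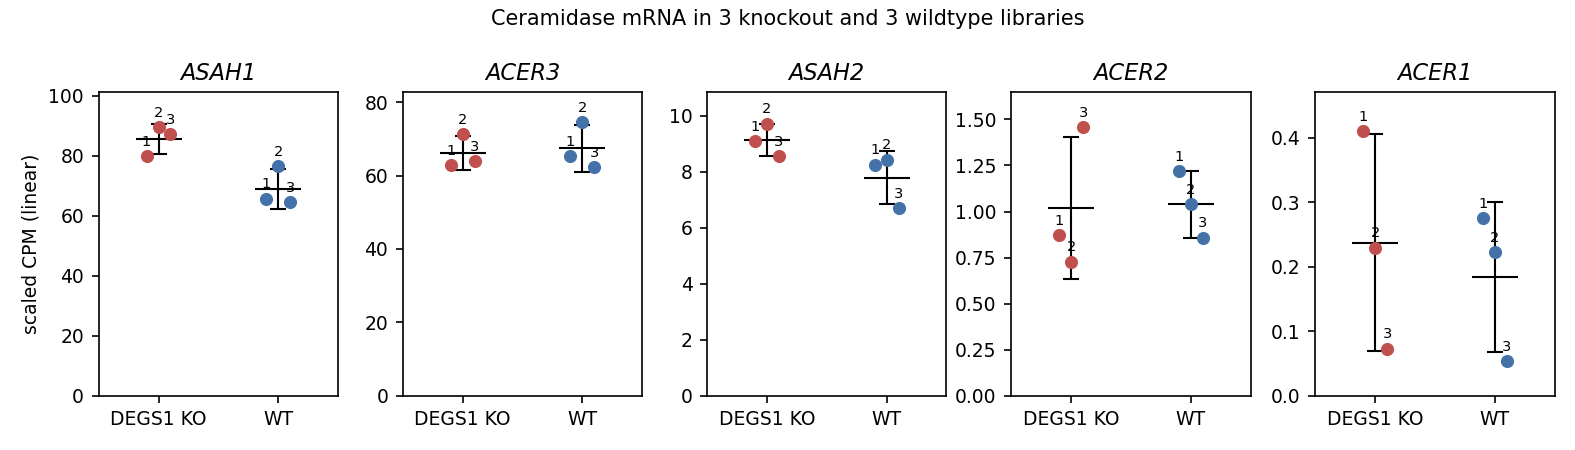
Scaled CPM on a linear axis from 0, a separate axis for each ceramidase, with the 3 DEGS1 knockout libraries (red) left of the 3 wildtype libraries (blue). Digits give the replicate, bars the mean and SD. ASAH1 lies at 79.9 to 89.6 CPM in the knockout and 64.6 to 76.5 CPM in wildtype, while the ACER3, ACER2 and ACER1 groups overlap.

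Taking ASAH1 and ACER3 against each other within a library removes any scaling of the library. The ratio of ASAH1 to ACER3 counts was 1.27, 1.26 and 1.37 in the knockout libraries, against 1.01, 1.03 and 1.04 in the wildtype libraries. The wildtype libraries differed by little (1.02 ± 0.0156, SD, n = 3), although ASAH1 alone differed more between them, and the knockout libraries averaged 1.30 ± 0.0598 (SD, n = 3). The 95% intervals for counting error of the wildtype ratios were 0.939 to 1.08, 0.964 to 1.09 and 0.955 to 1.12. Each is wider than the range of the 3 wildtype ratios, so no weight is placed on how close these lie. The highest wildtype interval for counting error ended at 1.12 and the lowest knockout interval began at 1.18. The mean ratio was 1.27-fold higher in the knockout (two-sided exact permutation test p = 0.10, the smallest that 3 against 3 libraries can give). Of the 6 ratios among the 4 tested ceramidases, ASAH2 to ACER3 was the other in which the groups did not overlap, at 0.144, 0.136 and 0.134 in the knockout libraries and 0.126, 0.113 and 0.107 in the wildtype libraries (1.20-fold, exact permutation p = 0.10). Adjusted over the 6 ratios, both had an exact permutation p of 0.3, and the other 4 overlapped. These ratios were formed after the values of the genes were seen. Both that did not overlap have ACER3 as the denominator, and ASAH1 and ASAH2 did not overlap on their own, so they are not independent of each other. Of single tested genes 20.8% did not overlap, and the share over ratios of other gene pairs was not computed. With the length and GC trend removed, the ASAH1 to ACER3 ratio was 1.26, 1.25 and 1.34 in the knockout libraries and 1.03, 0.998 and 1.08 in the wildtype libraries. With chromosome medians removed it was 1.31, 1.25 and 1.38 in the knockout libraries and 1.00, 1.00 and 1.04 in the wildtype libraries.

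**Figure D2:**
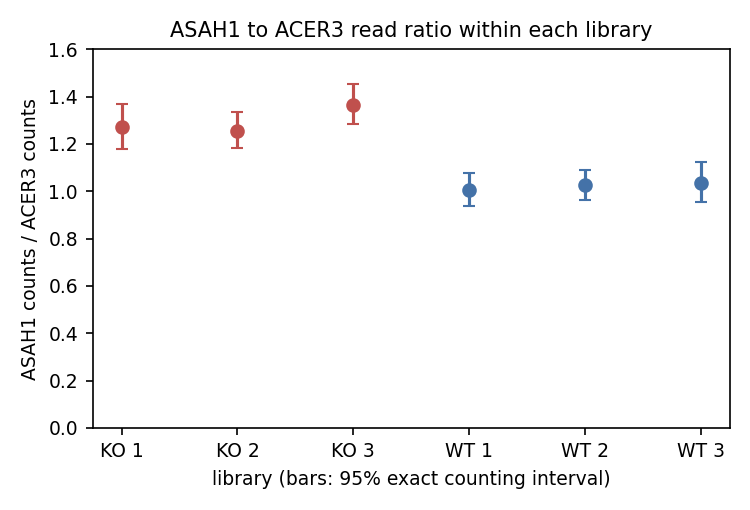
Ratio of ASAH1 to ACER3 read counts in each library, on a linear axis from 0, knockout in red and wildtype in blue, with 95% exact intervals for counting error. The 3 knockout libraries lie between 1.26 and 1.37 and the 3 wildtype libraries between 1.01 and 1.04.

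As a share of the summed level of the 5 genes per kilobase of longest transcript, ASAH1 made up 57.0%, 57.4% and 58.9% in the knockout libraries, against 51.5%, 52.7% and 53.3% in the wildtype libraries. ACER3 made up 34.9%, 35.6% and 33.6% in the knockout libraries, against 39.8%, 40.0% and 40.1% in the wildtype libraries. These shares rest on the same reads as the ratio, and their size depends on the transcript taken. With the median length of coding transcripts, the mean level of ACER3 was above that of ASAH1 in both genotypes. ASAH2 took 4.61% to 5.40% over all libraries, ACER2 1.19% to 2.52% and ACER1 0.176% to 1.16%.

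None of the 4 tested ceramidases passed in edgeR's test or by DESeq2 or limma voom, and ACER1 was too low to be tested there. By edgeR 1 of the 4, ASAH1, had an unadjusted p under 0.05, as did 16.5% of all tested genes. Their median log2FC was 0.10, against -0.02 over all tested genes, with 2 positive and 2 negative. None of the 4 relatives passed in edgeR's test, DESeq2 or limma voom, or had an unadjusted p under 0.05. NAAA, a lysosomal amidase related in sequence to ASAH1 that cleaves N-acylethanolamines, averaged 26.5 ± 3.39 CPM in the knockout and 26.9 ± 2.83 CPM in wildtype (SD, n = 3 each; log2FC -0.02, SE 0.13). The adiponectin receptors ADIPOR1 and ADIPOR2, for which a ceramidase activity has been described, had log2FC values of 0.00 (SE 0.14) and 0.02 (SE 0.12).

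Of the 41 listed genes that make ceramide, release it from sphingolipids, use it or use sphingosine, 38 were tested, 3 fell and none rose, where 2.95% of all tested genes fell and 1.51% rose. Those 3 are the knocked-out gene DEGS1 itself, SPHK1 and SPTLC2, and the median log2FC of the 38 was 0.00, with 19 positive and 19 negative. Without wildtype replicate 2, 4 rose and 6 fell, in the fit where 22.1% of all genes passed. SPHK1, the kinase that phosphorylates the sphingosine ceramidases release, had 2.92, 1.95 and 2.92 CPM in the knockout libraries, against 7.86, 7.17 and 9.59 CPM in the wildtype libraries (edgeR adjusted p = 0.00147). It was the only one of 8 genes of sphingosine use to pass with all libraries; the transporter SPNS2 fell without wildtype replicate 2 (edgeR adjusted p = 0.0480). The second kinase, SPHK2, had a log2FC of 0.15 (SE 0.16), the sphingosine 1-phosphate lyase SGPL1 one of 0.10 (SE 0.10), and the phosphatase SGPP1, which turns sphingosine 1-phosphate back into sphingosine, one of 0.02 (SE 0.13). In the synthesis genes SPTLC2, a subunit of the first enzyme of the pathway, fell to 95.4 ± 7.20 CPM in the knockout, against 155 ± 8.45 CPM in wildtype (SD, n = 3 each; edgeR adjusted p = 0.00337). Without wildtype replicate 2, SPTLC3, another subunit of that enzyme, also fell (log2FC -0.70, edgeR adjusted p = 0.00194) and its regulator ORMDL1 rose (0.30, edgeR adjusted p = 0.0468). None of the 5 tested ceramide synthases, which return sphingoid bases to ceramide, passed in edgeR's test, DESeq2 or limma voom, or had an unadjusted p under 0.05, and their log2FC lay between -0.05 for CERS5 and 0.20 for CERS1.

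Among 8 tested genes that release ceramide, none passed edgeR's test, none had an unadjusted p under 0.05, and none passed by DESeq2 or limma voom. The smallest p belonged to the neutral sphingomyelinase SMPD3, with 2.57, 1.53 and 1.68 CPM in the knockout libraries, against 3.50, 2.08 and 2.73 CPM in the wildtype libraries (log2FC -0.54, SE 0.31, edgeR adjusted p = 0.427). PSAP, the precursor of the saposins that ASAH1 needs to reach its substrate, averaged 245 CPM in the knockout and 217 CPM in wildtype (log2FC 0.17, SE 0.17). PSAP passed only without wildtype replicate 2 (log2FC 0.40, edgeR adjusted p = 0.0227). Among 7 genes that use ceramide, SGMS1, a Golgi sphingomyelin synthase, came nearest to the threshold. It had 24.9, 27.4 and 25.0 CPM in the knockout libraries, against 17.7, 20.3 and 17.8 CPM in the wildtype libraries (log2FC 0.47, SE 0.12, edgeR adjusted p = 0.0534). These groups did not overlap, as was so for 20.8% of all tested genes. SGMS1 did pass in 7 of 16 alternatives, which include the replicate block (edgeR adjusted p = 0.0301), the DESeq2 Wald test (adjusted p = 0.0307) and the fit without wildtype replicate 2 (edgeR adjusted p = 0.00711). SGMS1 apart, the log2FC values of this group ran from -0.59 for UGT8 to 0.14 for CERK, and these 2 genes passed only without wildtype replicate 2 (edgeR adjusted p = 0.00244 and 0.0415).

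**Figure D3:**
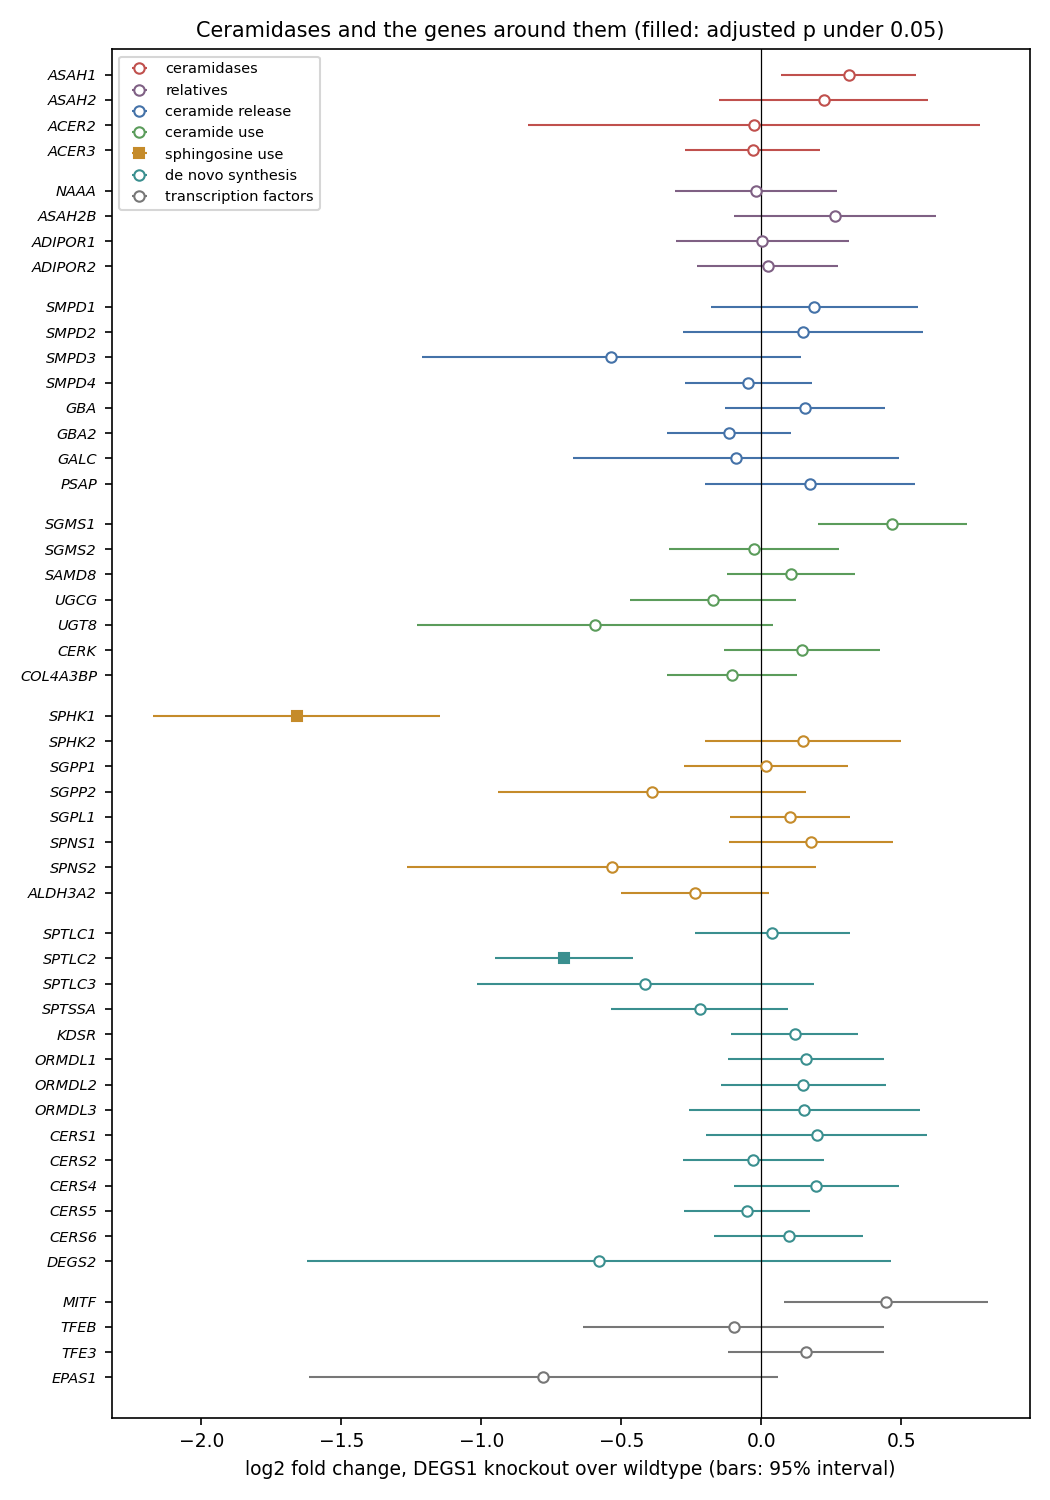
Log2 fold change, knockout over wildtype, with its 95% interval for the 4 tested ceramidases (top), their relatives, 37 tested pathway genes (DEGS1, at -3.59, is left off) and 4 transcription factors. Filled squares mark an adjusted p under 0.05 in edgeR's test, which SPHK1 (-1.66) and SPTLC2 (-0.70) reached.

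Of 4 transcription factors known to act on ceramidase genes or on lysosomal genes in general, none passed edgeR's test, DESeq2 or limma voom, and MITF, which activates ASAH1 in melanoma cells, had an unadjusted p under 0.05. MITF averaged 9.04 CPM in the knockout and 6.64 CPM in wildtype, and the groups did not overlap (log2FC 0.45, SE 0.17, edgeR adjusted p = 0.191). TFEB and TFE3, which drive lysosomal genes, had log2FC values of -0.10 (SE 0.25) and 0.16 (SE 0.13). EPAS1, a hypoxia factor reported to act on ACER2, was under 1 CPM on average in both genotypes (-0.78, SE 0.38, edgeR adjusted p = 0.341). The EPAS1 groups did not overlap either, with the knockout libraries lower.

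The genes whose log2 CPM moved most like a ceramidase over the 6 libraries were picked from 14710 genes per ceramidase with a mean of at least 1 CPM. With so many candidates over 6 libraries, values near 1 arise readily, and the libraries share their genotypes and depths. ZNF134, TRIM16 and METTL25 were nearest to ASAH1 (Pearson correlation 0.999, 0.995 and 0.995), and TYW1, GSPT1 and STK38 to ACER3 (0.996, 0.994 and 0.994). VPS33A, FAM129A and GRAMD3 were nearest to ASAH2 (0.993, 0.987 and 0.984), and PATJ, DPM2 and KIF14 to ACER2 (0.983, 0.973 and 0.969). None of these 12 genes passed edgeR's test between the genotypes, which was largely fixed by choosing them for likeness to ceramidases that did not pass.

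**Figure D4:**
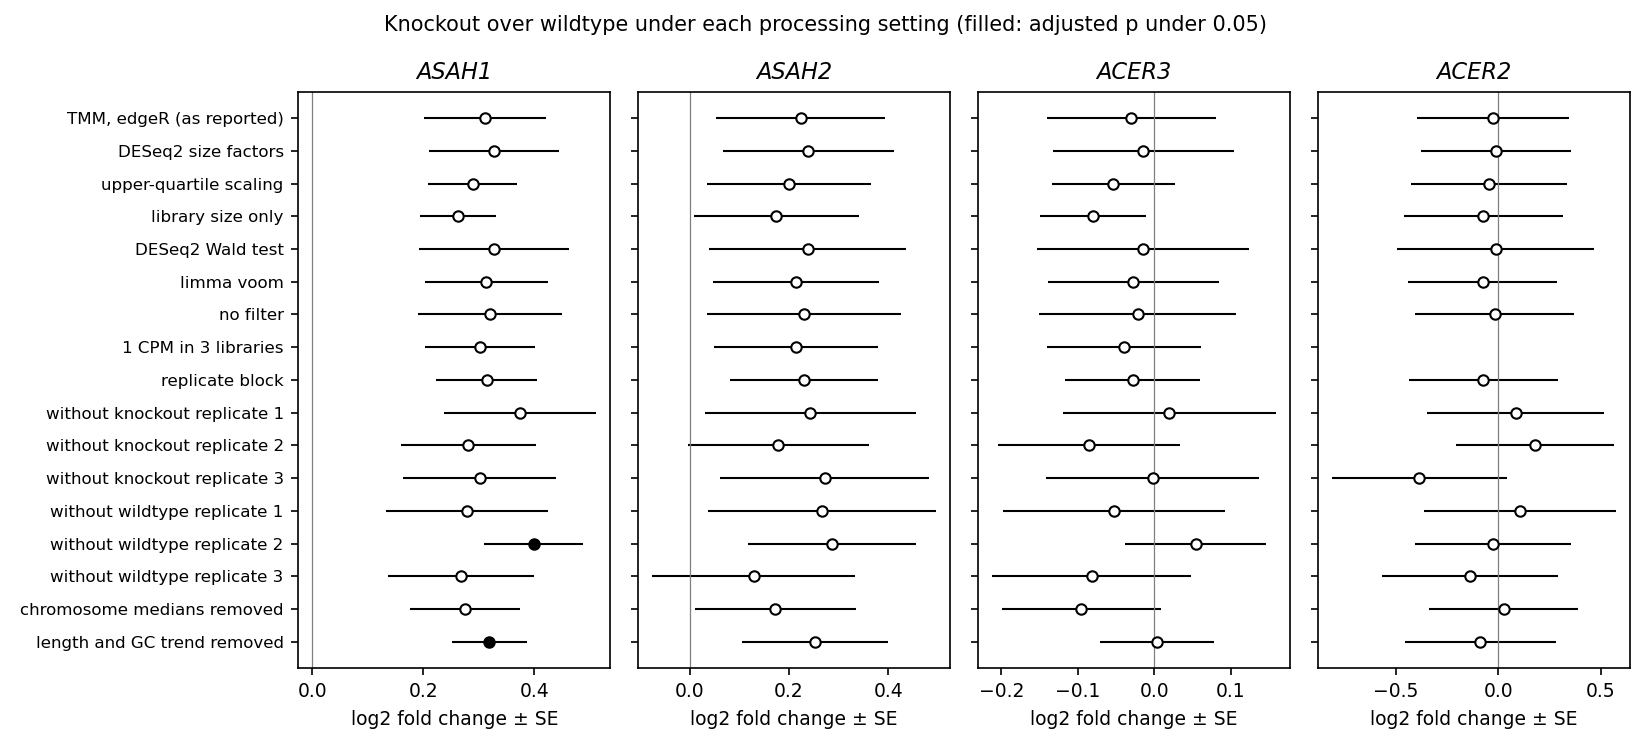
Log2 fold change, knockout over wildtype, with its SE for the 4 tested ceramidases under the reported setting (top row) and 16 alternatives, each panel on its own axis. ASAH1 lies between 0.26 and 0.40 in all alternatives and is filled, meaning an adjusted p under 0.05, without wildtype replicate 2 and with the length and GC trend removed. ACER2 has no value under the filter of 1 CPM in 3 libraries.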

How the data were processed

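Gene expression was measured by stranded total RNA sequencing with single reads of 75 bases in 3 DEGS1 knockout and 3 wildtype libraries. The authors deposited raw counts of reads for each gene symbol. The submitters' processing notes name bcl2fastq 2.20 and hg19. The aligner, counter, annotation and strand setting were not given in the sources used here. Gene names, transcript lengths and promoter windows came from the later build GRCh38, and the only coordinates printed are those of RefSeq promoter windows in that build.

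TMM scaling was applied, counts were filtered with edgeR's expression filter, and genotype was tested with edgeR 4.0.16 (quasi-likelihood, robust) in R 4.3.3, with Benjamini-Hochberg adjustment over 16954 genes. The SE was taken from the fold change and the F statistic. Alternatives used DESeq2 1.42.0 and limma 3.58.1, other scalings and filters, a replicate block, leaving out libraries singly, and chromosome medians or the length and GC trend removed (known for 92.2% of tested genes). A count of 3 corresponds to 0.109 to 0.161 CPM. Intervals on counts cover counting error only. The procedure was tested on simulated data with the same dispersion for every gene and no library that stood apart. That check therefore does not show how the test performs with a library such as wildtype replicate 2.

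The genes and lists were chosen with earlier results of these data known. Named are all ceramidases, DEGS1, their relatives and transcription factors, called pathway genes or the smallest p of a role with none called, and the 3 genes most correlated with each tested ceramidase; other pathway genes named were chosen after their values were seen. A further listed factor is not reported here.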

Additional observations from a re-analysis of the deposited data

How the results depend on the processing

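ASAH2 kept its direction and did not pass in any of 17 alternatives, ASAH1 kept its direction in all of 16, and DEGS1 stayed called in all of 16. ASAH1 passed in 2, without wildtype replicate 2 and with the length and GC trend removed (log2 fold change 0.32), where 1 ceramidase was therefore called in place of 0. Leaving out 1 library at a time gave 0.27 to 0.40 for ASAH1, 0.13 to 0.29 for ASAH2, -0.086 to 0.054 for ACER3, -0.38 to 0.18 for ACER2, 380 to 3825 changed genes, 0 to 1 called ceramidases and 3 to 10 called pathway genes. The count of changed genes was 424 without knockout replicate 1, 380 without knockout replicate 3, 441 without wildtype replicate 1 and 3825 without wildtype replicate 2. ACER3 changed sign without knockout replicate 1 (0.02), without wildtype replicate 2 (0.054) and with the length and GC trend removed (0.0037). ACER2 changed sign without knockout replicate 1 (0.08), without knockout replicate 2 (0.18), without wildtype replicate 1 (0.10) and with chromosome medians removed (0.026). The cause of these changes was not tested. The log2 ratio of summed ACER1 counts (0.15) was -0.40 without knockout replicate 1, -0.18 without wildtype replicate 3 and 0.64 without knockout replicate 3, all within its counting interval. In the labels each knockout library shares a suffix, whose meaning is not stated, with the wildtype library of the same number. Deviations of these pairs correlated at 0.26, 0.41 and -0.23 over 10461 genes. Libraries of unlike number correlated from -0.56 (knockout 1 and wildtype 2) to 0.59 (knockout 1 and wildtype 3). These values therefore cannot decide whether the libraries are paired, and the reported fit did not pair them. The replicate block, an alternative, paired them by number. With the replicate block 1082 genes changed, against 756 without it, ASAH1 had an adjusted p of 0.0766 by edgeR, and no ceramidase passed. ACER1 was tested only with no filter (edgeR log2 fold change 0.24, adjusted p = 0.911). At 1 CPM in 3 libraries ACER2 was also too low to test.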
